A study of Mus musculus with 12 samples.

Results

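The genes described here encode the nuclear subunits of the 5 complexes of mitochondrial oxidative phosphorylation, measured in whole mouse kidney. They were chosen by a rule on the gene symbols of the platform annotation: Nduf genes of the a, b, c, s and v series with Ndufab1 for complex I, Sdha to Sdhd for complex II, Uqcr genes and Cyc1 for complex III, Cox4 to Cox8 genes for complex IV, and Atp5 genes for complex V. The rule itself uses no measured values, but it was chosen with earlier results of these data known. The rule found 86 genes of the 19505 named on the array, with 38 in complex I, 4 in complex II, 9 in complex III, 18 in complex IV and 17 in complex V, and each was read by 1 probe set.

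Electrons from NADH enter the chain at complex I, and electrons from succinate at complex II, which is also the succinate dehydrogenase of the citric acid cycle. Coenzyme Q carries both streams to complex III, cytochrome c carries them on to complex IV, and complex V uses the proton gradient so made to synthesise ATP. Reabsorption along the proximal tubule runs mainly on this pathway, and metformin, a biguanide that lowers blood glucose, is known to inhibit complex I at high concentrations. Losartan blocks the type 1 angiotensin II receptor.

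There were 12 samples in 4 groups of 3, hybridised to Affymetrix Clariom S arrays, and every mouse was 16 weeks old according to the labels. Wild type mice received vehicle. Alport mice, a model of hereditary nephritis, were hemizygous for the nonsense allele G5X of the collagen gene Col4a5 and received vehicle, losartan or metformin. Metformin was dissolved in the drinking water at 2.5 mg/mL from week 6 to 11 and at 5 mg/mL afterwards, losartan at 125 µg/mL and then 250 µg/mL over the same weeks. The stated period for the higher doses ends at week 20, after the stated age at death. Losartan is also described as given together with another agent, and the groups are therefore named by the sample titles. The strain and the sex of the mice were not given in the labels, and nothing there says that each sample was a different mouse. The p-values therefore describe only how far these samples varied, and that variation may be technical. All 3 Alport groups carry the mutation, and no wild type group received a drug.

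Values were deposited as log2 signals, so that a difference of 1 is a 2-fold difference. Array medians lay between 5.88 and 6.065, and the correlation between samples of a group, over probe sets that are not independent, lay between 0.990 and 0.994. Col4a5 read 5.06 to 5.83 in wild type and 4.09 to 4.97 in the 9 Alport samples. Its signal was low, below the median of each sample. In Alport vehicle against wild type, 7.71% of all probe sets were called lower and 8.43% higher by the limma test described below. Of 15 proximal tubule marker genes 13 fell in that comparison. The log2 of their summed level was 21.01 to 21.10 in wild type, 20.14 to 20.41 in Alport vehicle, 20.71 to 20.89 with losartan and 20.69 to 20.82 with metformin. All 9 markers of fibroblasts, pericytes and smooth muscle rose in the same comparison, with summed levels of 12.38 to 12.86, 15.86 to 16.39, 14.14 to 14.46 and 14.03 to 14.78 in those groups. Of 9 macrophage and leukocyte markers 6 rose, and their summed levels were 10.86 to 10.93, 12.67 to 14.43, 11.54 to 11.84 and 11.90 to 13.17. Other markers were mixed. Of 8 genes of the thick ascending limb and distal convoluted tubule 2 fell and 0 rose. Of 8 collecting duct genes 2 fell and 1 rose. Among 5 podocyte genes 0 fell and 1 rose, and among 6 endothelial genes 1 fell and 1 rose. In whole tissue, fewer cells of a type and less RNA per cell cannot be told apart. Marker levels thus differed between the groups compared below, and their part in the results for the respiratory chain genes was not tested.

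Among the regulators known to act on these genes are NRF1, the ETS factor GABPA, the receptor ESRRA and YY1. RefSeq promoter windows of 250 bases before to 50 bases after the transcription start (assembly GRCm38.p6) were found for 70 of the 86 genes, in 75 windows. The window sequences were searched on both strands for GCATGCGC (the NRF1 core) and for a longer NRF1 motif, the same core preceded by GC, CCGGAAG (GABPA and other ETS factors), TCAAGGTCA (ESRRA) and AAGATGGC (YY1). The long NRF1 motif, which contains its core on each strand, was in 6.67% of the windows of respiratory chain genes and in 0.971% of all 32851 windows. The NRF1 core was in 13.3% against 2.71%, the ETS motif in 22.7% against 8.86%, the ESRRA motif in 2.67% against 0.423%, and the YY1 motif in 13.3% against 2.75%. A match describes the letters only and does not show binding.

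All 5 genes with the long NRF1 motif are shown here with 30 bases around it, the motif in capitals, since they come from 4 of the complexes. They are read 5′ to 3′ along the gene's own strand.
Ndufa11, chr17:56717692-56717721, plus strand: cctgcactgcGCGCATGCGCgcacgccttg
Uqcrc1, chr9:108936668-108936697, plus strand: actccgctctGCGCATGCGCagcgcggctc
Cox6a1, chr5:115349101-115349130, minus strand: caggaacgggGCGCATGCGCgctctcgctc
Atp5g2, chr15:102671070-102671099, minus strand: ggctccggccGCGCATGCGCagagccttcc
Atp5k, chr5:108434430-108434459, minus strand: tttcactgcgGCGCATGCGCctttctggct
Relative to the transcription start, the motif began at -60 in Ndufa11, 31 in Uqcrc1, -162 in Cox6a1, -42 in Atp5g2 and -50 in Atp5k. Of these 5 genes only Uqcrc1 fell in Alport vehicle kidneys by the test described next.

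Of the 11 genes that fell in Alport vehicle kidneys, 8 had a window. The ETS and ESRRA motifs were in 0 of these 8, the NRF1 motif in 1 (Uqcrc1) and the YY1 motif in 2, Ndufa9 and Ndufs7. The YY1 motif of these last is printed in capitals because the pair belongs to the fallen complex I genes, and it lay just after the start in each, at bases 30 to 37 of Ndufa9 and 25 to 32 of Ndufs7.
Ndufa9, chr6:126849097-126849126, minus strand: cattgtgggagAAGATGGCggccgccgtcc
Ndufs7, chr10:80249462-80249491, plus strand: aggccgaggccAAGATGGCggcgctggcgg
Among the other 62 genes with a window, 17 held the ETS motif, 4 the long NRF1 motif, 2 the ESRRA motif and 8 the YY1 motif. The split into fallen and other genes depends on the calls. Those of Uqcrc1, Ndufa9 and Ndufs7 were lost after a new quantile normalization (limma adjusted p of 0.127, 0.122 and 0.0565). A difference in motifs between these sets was not tested.

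Alport vehicle and wild type kidneys differ in genotype by their labels. In Alport vehicle 11 of the 86 genes fell and 0 rose against wild type. The test was limma with Benjamini-Hochberg adjustment over all 22206 probe sets, at an adjusted p under 0.05. The background was 7.71% of all probe sets called lower and 8.43% called higher. By complex, 6 of 38 genes fell in complex I, 2 of 4 in complex II, 2 of 9 in complex III, 0 of 18 in complex IV and 1 of 17 in complex V. The median log2 change was -0.13 for complex I, -0.43 for complex II, -0.31 for complex III, 0.14 for complex IV (0.00 after centring each sample) and -0.15 for complex V (0.03 after quantile normalization). It was -0.09 over the 86 genes and -0.03 over all probe sets. The 3 Alport vehicle samples lay wholly below the 3 wild type samples for 23 genes (background 15.5%) and wholly above them for 5 (background 14.2%).

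The scale of the arrays bears on this count. With each sample centred on its own median, which moved the median of all probe sets from -0.03 to -0.17, 17 genes fell and 0 rose, and over all probe sets 1451 were higher and 2842 lower in place of 1871 and 1711. After a new quantile normalization 5 fell (Ndufa10, Ndufb10, Sdha, Sdhc and Uqcrc2) and 2 of complex V, Atp5j2 and Atp5md, rose, and the median of the 86 genes was 0.03. Leaving out wild type sample 1 or Alport vehicle sample 1 gave 6 falls, leaving out wild type sample 3 gave 4, and leaving out Alport vehicle sample 3 gave 5. Leaving out Alport vehicle sample 2 gave 16.

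**Figure D1:**
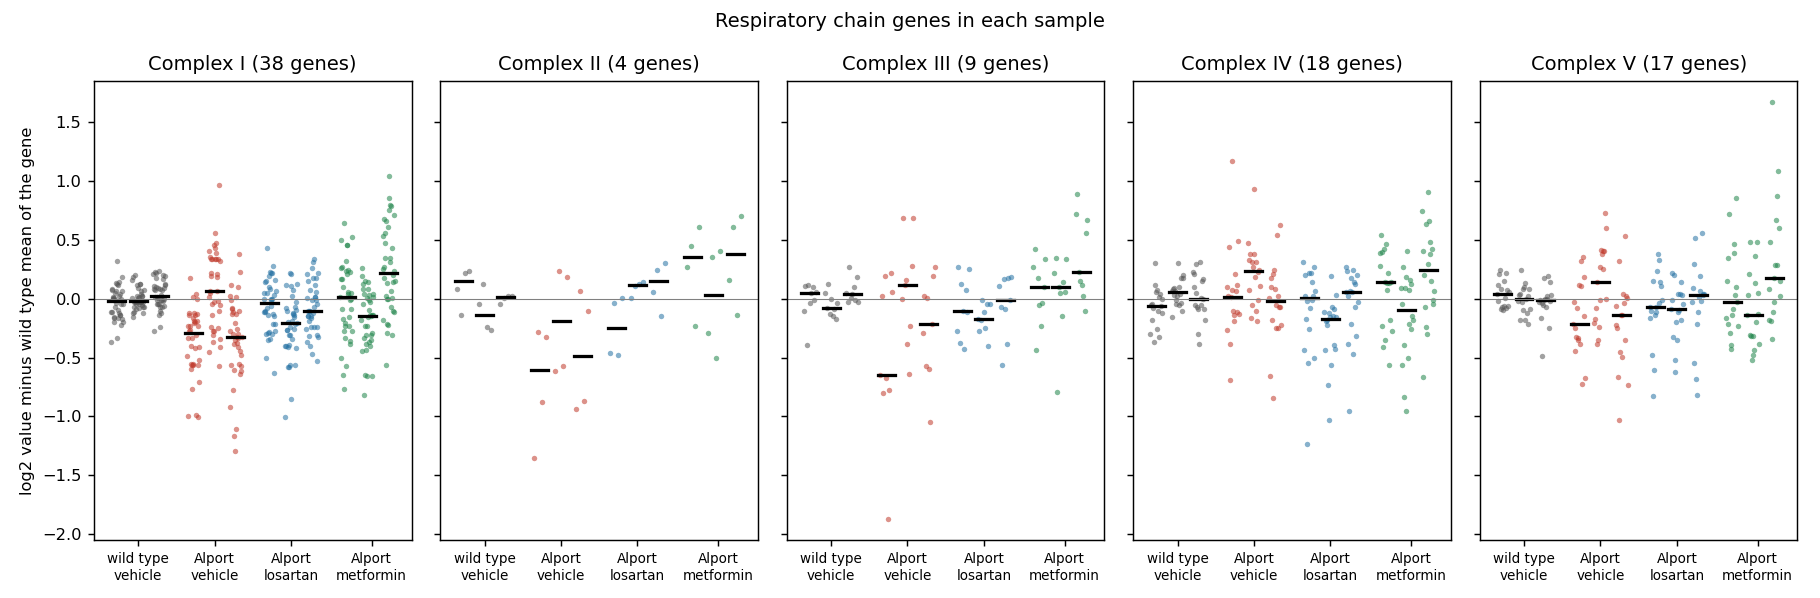
Each point is the log2 value of 1 gene in 1 sample minus the mean of that gene in the wild type samples, with a panel for each complex, samples 1 to 3 from left to right within a group, and bars at the sample medians. In Alport vehicle the median over all 86 genes lay at -0.23 and -0.22 in samples 1 and 3 and at 0.15 in sample 2, so the group was not uniform.

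The Alport vehicle samples were uneven as a set. Relative to the wild type means, the median over the 86 genes was -0.23 in sample 1, 0.15 in sample 2 and -0.22 in sample 3. Losartan samples stood at -0.04, -0.16 and -0.01, and metformin samples at 0.05, -0.14 and 0.21. Sample 2 was the highest of the Alport vehicle group in each of the 5 complexes. In complex II it was still at -0.19, against -0.60 and -0.49 in the other two.

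Complex I couples NADH oxidation to proton pumping, and its conserved core carries the flavin and the iron-sulfur clusters while the supernumerary subunits surround it. Ndufa10, a supernumerary subunit on the membrane arm, had the largest fall of this complex. Its log2 values were 14.11, 14.23 and 14.33 in wild type, 13.23, 13.77 and 13.30 in Alport vehicle, 14.11, 13.82 and 13.86 under losartan and 13.72, 13.78 and 14.04 under metformin. All Alport vehicle samples lay below all wild type samples, and losartan samples lay between or level with them. The fall was 0.79 ± 0.18 (SE, n = 3 per group, adjusted p = 0.00571), and it remained called without each sample in turn. With losartan Ndufa10 was 0.50 ± 0.18 above Alport vehicle (adjusted p = 0.11) and with metformin 0.41 ± 0.18 above it (adjusted p = 0.219).

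The 250 bases before the start of Ndufa10 are shown as those of the complex I gene that changed most, and held none of the 5 motifs searched.
Ndufa10, chr1:92473759-92474008, minus strand: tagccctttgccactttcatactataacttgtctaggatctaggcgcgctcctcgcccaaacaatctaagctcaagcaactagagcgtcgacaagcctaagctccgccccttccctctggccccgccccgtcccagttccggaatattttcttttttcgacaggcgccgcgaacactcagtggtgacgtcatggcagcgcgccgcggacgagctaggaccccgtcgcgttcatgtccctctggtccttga

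Of the core, 3 subunits fell as well. Ndufv1 binds FMN and is where NADH gives up its electrons. It read 15.42, 15.57 and 15.79 in wild type, 14.89, 15.18 and 14.98 in Alport vehicle, 15.32, 15.50 and 15.55 under losartan and 15.51, 15.61 and 15.48 under metformin. Every Alport vehicle value lay below every other value of this gene, and the fall was 0.58 ± 0.16 (adjusted p = 0.0207). Ndufs1, the largest iron-sulfur subunit, read 13.56, 13.76 and 13.77 in wild type, 12.71, 13.45 and 13.14 in Alport vehicle, 13.57, 13.54 and 13.71 under losartan and 13.54, 13.56 and 13.39 under metformin. Alport vehicle again lay below wild type without overlap, and sample 1 lay lowest (fall of 0.60 ± 0.18, adjusted p = 0.0347). Ndufs7, which holds the last iron-sulfur cluster before coenzyme Q, read 12.45, 12.14 and 12.20 in wild type, 11.26, 11.69 and 11.82 in Alport vehicle, 11.63, 12.24 and 12.02 under losartan and 12.31, 12.13 and 12.41 under metformin. The wild type and Alport vehicle samples did not overlap, and the fall was 0.67 ± 0.20 (adjusted p = 0.0266). Each of these 3 calls was lost after quantile normalization, with adjusted p of 0.16, 0.129 and 0.0565 for Ndufv1, Ndufs1 and Ndufs7. They were also lost without Alport vehicle sample 1 (0.0803, 0.172 and 0.13) and without wild type sample 3 (0.0972, 0.104 and 0.0566). The Ndufv1 and Ndufs1 calls were lost without Alport vehicle sample 3 as well (0.0578 and 0.0672), the Ndufs1 call without wild type sample 2 (0.0987) and the Ndufs7 call without wild type sample 1 (0.109).

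Ndufs8, another iron-sulfur subunit of the core, did not pass the test. It read 14.19, 14.05 and 14.12 in wild type, 13.56, 13.78 and 13.55 in Alport vehicle, 13.91, 13.70 and 13.81 under losartan and 14.12, 13.83 and 14.36 under metformin. The change in Alport vehicle was -0.49 ± 0.17 (adjusted p = 0.0579), with no overlap between the groups. For the remaining core subunits, Ndufs3 and Ndufv2, it was -0.10 ± 0.16 and -0.22 ± 0.24, and their groups overlapped. The 6 core subunits measured had a median change of -0.53, with 3 fallen, and the 32 others had a median of -0.08, with 3 fallen. Of all probe sets 7.71% were called lower, and the share of the 32 was near that. The 3 core calls are those lost after quantile normalization. This division into core and supernumerary subunits was made after the values had been seen and has no test.

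The other fallen subunits were supernumerary. Ndufb10, of the distal membrane arm, read 9.0, 9.06 and 9.04 in wild type and 8.47, 8.67 and 7.74 in Alport vehicle (fall of 0.74 ± 0.23, adjusted p = 0.0347), with sample 3 lowest and no overlap. Ndufa9, a subunit at the joint of the arms of the complex, read 13.53, 13.45 and 13.63 against 12.77, 13.23 and 12.93 (fall of 0.56 ± 0.18, adjusted p = 0.0382), again without overlap. The Ndufa9 call was lost on leaving out any of these samples but Alport vehicle sample 2, after quantile normalization (adjusted p = 0.122), when only these groups were fitted (0.0682) and with the replicate number as a block (0.0511). The Ndufb10 call was lost on leaving out any wild type sample or Alport vehicle sample 3, with adjusted p of up to 0.173.

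At the other end of complex I stood Ndufs5, an intermembrane-space subunit, which read 11.18, 11.42 and 11.60 in wild type, 11.40, 12.37 and 11.63 in Alport vehicle, 11.43, 11.33 and 11.58 under losartan and 11.04, 11.05 and 11.60 under metformin. Its change of 0.40 ± 0.23 did not pass (adjusted p = 0.294), and its Alport vehicle mean rested on sample 2. The remaining genes of complex I had changes between the values of Ndufab1, the mitochondrial acyl carrier protein (-0.59 ± 0.21, adjusted p = 0.0632), and of Ndufs4 (0.20 ± 0.21). Ndufb4 and Ndufb4b are near-identical and may share signal. Ndufa4, named for complex I but since placed with complex IV, read 16.47, 16.35 and 16.56 in wild type, 16.23, 16.80 and 16.37 in Alport vehicle, 16.61, 16.36 and 16.61 under losartan and 16.63, 16.50 and 16.81 under metformin, with overlap throughout. Its paralog Ndufa4l2, known as a hypoxia-induced gene, read 5.59, 5.76 and 6.01, then 5.96, 6.01 and 5.66, then 5.28, 5.38 and 5.68, and 5.89, 5.45 and 6.35 in the same order of groups. It lay below the sample median in 9 of 12 samples, and none of its 6 comparisons passed the test.

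Complex II is the smallest complex, and its genes divided into a pair that fell and a pair that did not. Sdha, the flavoprotein that oxidises succinate, read 13.25, 13.12 and 13.12 in wild type, 11.81, 12.55 and 12.23 in Alport vehicle, 12.70, 13.17 and 13.22 under losartan and 13.43, 12.87 and 13.32 under metformin. Every Alport vehicle sample lay below all 9 others, and the fall was 0.97 ± 0.21 (adjusted p = 0.00482), or 48.8% on the linear scale. Sdhc, a membrane anchor, read 12.68, 12.22 and 12.48 in wild type, 11.58, 11.89 and 11.59 in Alport vehicle, 11.98, 12.59 and 12.31 under losartan and 12.23, 11.96 and 12.32 under metformin. Here too Alport vehicle lay below every other sample (fall of 0.77 ± 0.19, adjusted p = 0.0107, or 0.0562 without wild type sample 1).

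Sdhb, the iron-sulfur protein that takes electrons from Sdha, read 15.11, 15.37 and 15.25 in wild type, 14.96, 15.48 and 15.31 in Alport vehicle, 15.21, 15.35 and 15.49 under losartan and 15.69, 15.60 and 15.85 under metformin. Wild type and Alport vehicle overlapped, with a difference of 0.01 ± 0.17 (95% interval -0.36 to 0.37), while each metformin sample lay above the 9 others. Sdhd, the other anchor, read 13.43, 12.93 and 13.22 in wild type, 12.87, 13.38 and 13.09 in Alport vehicle, 13.20, 13.34 and 13.50 under losartan and 13.80, 13.60 and 13.90 under metformin. Its change in Alport vehicle was -0.08 ± 0.18 (interval -0.47 to 0.31), and its metformin samples also lay above all others.

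The sequences before the starts of Sdha and Sdhb are printed because these partners of the same electron path had unlike values in Alport vehicle, and they were picked after the values were known. Sdhb held the NRF1 core, in capitals, from position -54, and the ETS motif from position 7, beyond the bases printed. Sdha held none of the motifs.
Sdha, chr13:74350241-74350490, minus strand: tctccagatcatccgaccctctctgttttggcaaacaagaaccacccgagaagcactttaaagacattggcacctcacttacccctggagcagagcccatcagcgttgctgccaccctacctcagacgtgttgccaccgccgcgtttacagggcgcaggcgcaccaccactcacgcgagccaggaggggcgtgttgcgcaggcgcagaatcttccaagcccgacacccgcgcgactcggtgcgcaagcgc
Sdhb, chr4:140961021-140961270, plus strand: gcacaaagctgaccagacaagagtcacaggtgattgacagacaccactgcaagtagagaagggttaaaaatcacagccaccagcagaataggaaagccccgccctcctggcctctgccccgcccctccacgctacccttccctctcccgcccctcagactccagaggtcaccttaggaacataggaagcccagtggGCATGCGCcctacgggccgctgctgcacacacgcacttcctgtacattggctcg

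Complex III passes electrons from coenzyme Q to cytochrome c. Uqcrc2, a core protein on the matrix side, had the largest fall of the 86 genes. It read 10.66, 10.46 and 10.71 in wild type, 8.74, 9.97 and 9.56 in Alport vehicle, 10.18, 10.36 and 10.23 under losartan and 10.38, 10.46 and 10.63 under metformin. Alport vehicle lay below every other sample, and sample 1 lay far below samples 2 and 3 (fall of 1.19 ± 0.24, adjusted p = 0.00219, and 0.85 without that sample). Its partner Uqcrc1 read 14.17, 14.20 and 14.24 in wild type, 13.53, 13.82 and 13.61 in Alport vehicle, 14.10, 14.09 and 14.12 under losartan and 14.15, 14.25 and 14.32 under metformin. The Alport vehicle samples were again below all others, and the fall was 0.55 ± 0.15 (adjusted p = 0.0174). This call was lost after quantile normalization (adjusted p = 0.127) and without wild type sample 3 or Alport vehicle sample 1 or 3, with adjusted p of up to 0.0706.

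The subunits of complex III that move electrons did not pass. Uqcrfs1, the Rieske iron-sulfur protein, read 13.59, 13.41 and 13.48 in wild type, 12.72, 13.26 and 13.28 in Alport vehicle, 13.57, 13.45 and 13.67 under losartan and 13.46, 13.64 and 13.39 under metformin. Alport vehicle lay below the other groups without overlap, with a change of -0.41 ± 0.18 and an adjusted p of 0.141. Cyc1, cytochrome c1, read 11.56, 11.71 and 11.71 in wild type, 11.01, 11.66 and 11.37 in Alport vehicle, 11.39, 11.49 and 11.77 under losartan and 11.93, 11.88 and 12.38 under metformin. Wild type and Alport vehicle overlapped (change of -0.31 ± 0.20, adjusted p = 0.336), and metformin lay above all other samples. The 5 small subunits had a median change of 0.23, and the highest was Uqcrq at 0.34 ± 0.18 (adjusted p = 0.253), with 12.54, 12.45 and 12.46 in wild type, 12.54, 13.17 and 12.75 in Alport vehicle, 12.74, 12.44 and 12.67 under losartan and 12.82, 12.82 and 13.15 under metformin. Wild type and Alport vehicle met at 12.54 for this gene.

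Complex IV reduces oxygen to water, and several of its nuclear subunits exist as isoforms of different tissues. In Alport vehicle against wild type 0 of its 18 genes passed the limma test, and at an unadjusted p under 0.05 there was 1 higher (Cox8b) and 1 lower (Cox6a2), where 13.5% of all probe sets were higher and 14.1% lower. Their median change of 0.14 became 0.00 after centring and 0.21 after quantile normalization. Cox5b, a zinc-binding subunit, read 14.67, 14.80 and 14.66 in wild type, 15.15, 15.09 and 14.81 in Alport vehicle, 14.73, 14.53 and 14.73 under losartan and 15.11, 14.98 and 14.91 under metformin. The Alport vehicle samples lay just above the wild type samples (0.31 ± 0.16, adjusted p = 0.222). The structural subunit Cox4i1 read 14.23, 14.60 and 14.76 in wild type, 14.63, 15.00 and 14.54 in Alport vehicle, 14.84, 14.42 and 14.80 under losartan and 14.81, 14.62 and 15.28 under metformin, and all groups overlapped.

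Of the isoform pairs, the forms known to be widely expressed had small changes in Alport vehicle, with Cox6a1 at -0.24 ± 0.16, Cox6b1 at 0.18 ± 0.17, Cox7a2 at -0.08 ± 0.25, Cox7b at 0.18 ± 0.18 and Cox8a at -0.07 ± 0.15. Cox6a1 read 16.85, 16.96 and 16.98 in wild type, 16.55, 16.77 and 16.75 in Alport vehicle, 16.76, 16.71 and 16.55 under losartan and 16.70, 16.54 and 16.86 under metformin, so wild type lay above Alport vehicle. Cox7b read 14.72, 14.75 and 14.65, then 14.92, 15.02 and 14.73, then 14.85, 14.56 and 14.85, and 14.93, 14.49 and 15.09 in the same order of groups. Cox7a2 read 12.96, 13.16 and 13.53, then 13.03, 13.40 and 12.97, then 13.14, 12.65 and 12.75, and 13.29, 12.71 and 13.88. The groups of these last overlapped in each comparison. Cox7a2l, which helps complexes III and IV associate, read 11.35, 11.56 and 11.46 in wild type, 11.32, 11.35 and 12.00 in Alport vehicle, 11.68, 11.39 and 11.70 under losartan and 11.59, 11.53 and 11.94 under metformin, also with overlap.

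Of the isoforms known from muscle, brown fat, testis or hypoxic tissue, several were dim. Cox4i2, Cox7b2, Cox8b and Cox8c lay below the sample median in all 12 samples, and Cox8b below the lower quartile in all 12. Cox8b, a muscle and brown fat form, read 3.47, 3.79 and 3.50 in wild type, 4.08, 3.83 and 4.21 in Alport vehicle, 3.86, 3.43 and 3.79 under losartan and 3.73, 3.44 and 3.54 under metformin. Alport vehicle lay just above wild type (0.45 ± 0.18, adjusted p = 0.1). Cox6a2, a heart and muscle form, read 5.79, 6.22 and 6.45 in wild type, 5.46, 6.10 and 5.31 in Alport vehicle, 4.92, 5.42 and 5.20 under losartan and 5.74, 5.32 and 5.91 under metformin. Wild type and Alport vehicle overlapped (-0.53 ± 0.24, adjusted p = 0.156), and losartan lay below wild type (-0.97 ± 0.24, adjusted p = 0.0939).

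Cox7a1, another muscle form, was above the sample medians and read 8.13, 8.36 and 7.67 in wild type, 7.95, 8.99 and 8.0 in Alport vehicle, 7.80, 8.25 and 8.11 under losartan and 8.52, 8.46 and 8.96 under metformin. The metformin samples lay above the wild type and the losartan samples without overlap. Cox4i2 read 4.50, 4.40 and 4.76, then 4.29, 4.63 and 3.90, then 4.12, 4.12 and 4.61, and 4.94, 3.99 and 3.89 in wild type, Alport vehicle, losartan and metformin. Cox7b2 read 3.99, 4.49 and 4.47, then 4.38, 4.13 and 4.07, then 4.31, 3.92 and 4.25, and 3.75, 4.48 and 4.47 in that order. Both overlapped in each comparison, as did Cox8c, at 5.59, 5.77 and 5.41, then 5.46, 5.70 and 5.37, then 5.66, 5.62 and 5.56, and 5.32, 5.41 and 5.66. Of 10 markers of brown fat and striated muscle around the kidney 0 were called by limma in Alport vehicle against wild type (4 higher and 0 lower at an unadjusted p under 0.05). Of the 5 muscle markers Acta1 and Ckmt2 were below the lower quartile in every sample, Myh4 read 3.20 to 4.29, Mylpf 4.09 to 4.73 and Ckm 5.80 to 6.62, while Ucp1 of brown fat stood at 6.93 in Alport vehicle sample 3 and at 4.64 or less in the 11 others.

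Complex V consists of the catalytic F1 head and the membrane-bound Fo part. Atp5d, the delta subunit of the rotating stalk in F1, read 15.86, 15.47 and 15.61 in wild type, 15.20, 15.26 and 14.98 in Alport vehicle, 15.17, 15.32 and 15.10 under losartan and 15.43, 15.34 and 15.46 under metformin. All 9 Alport samples lay below the wild type samples, and in Alport vehicle the fall was 0.50 ± 0.16 (adjusted p = 0.0438, and 0.335 after quantile normalization). It was also lost without wild type sample 1 or 3 or Alport vehicle sample 1 or 3, with adjusted p of up to 0.177. The catalytic subunits Atp5a1 and Atp5b were at the bright end of the arrays, where the highest value was 19.88. Atp5a1 read 18.89, 18.83 and 18.82 in wild type, 18.63, 18.64 and 18.62 in Alport vehicle, 18.78, 18.76 and 18.82 under losartan and 18.68, 18.71 and 18.67 under metformin. Alport vehicle lay below all others, but the change of -0.22 ± 0.14 did not pass (adjusted p = 0.356).

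Atp5b read 18.22, 18.27 and 18.23 in wild type, 18.21, 18.07 and 18.18 in Alport vehicle, 18.08, 18.23 and 18.33 under losartan and 18.39, 18.27 and 18.32 under metformin (change in Alport vehicle of -0.09 ± 0.15). Wild type and Alport vehicle were adjacent without overlapping. Atp5g1, which encodes the c subunit of the rotor ring, read 14.88, 14.77 and 14.75 in wild type, 14.72, 14.45 and 13.77 in Alport vehicle, 13.97, 14.18 and 14.12 under losartan and 14.51, 14.48 and 14.46 under metformin. Each Alport sample lay below the wild type samples, and the Alport vehicle change of -0.49 ± 0.20 had an adjusted p of 0.123. Atp5pb, the stator subunit b, read 14.97, 14.82 and 14.94 in wild type, 14.24, 14.91 and 14.18 in Alport vehicle, 14.90, 14.87 and 14.95 under losartan and 14.68, 14.53 and 14.93 under metformin. Alport vehicle sample 2 overlapped with wild type (-0.47 ± 0.19, adjusted p = 0.121).

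Atp5md, a small membrane subunit linked to the dimer form of the enzyme, had the highest change of complex V. It read 15.52, 15.32 and 15.05 in wild type, 15.65, 15.70 and 15.83 in Alport vehicle, 15.63, 15.44 and 15.86 under losartan and 16.15, 15.78 and 16.38 under metformin. Alport vehicle lay above wild type without overlap (0.43 ± 0.19, adjusted p = 0.15), and metformin above wild type by more.

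**Figure D2:**
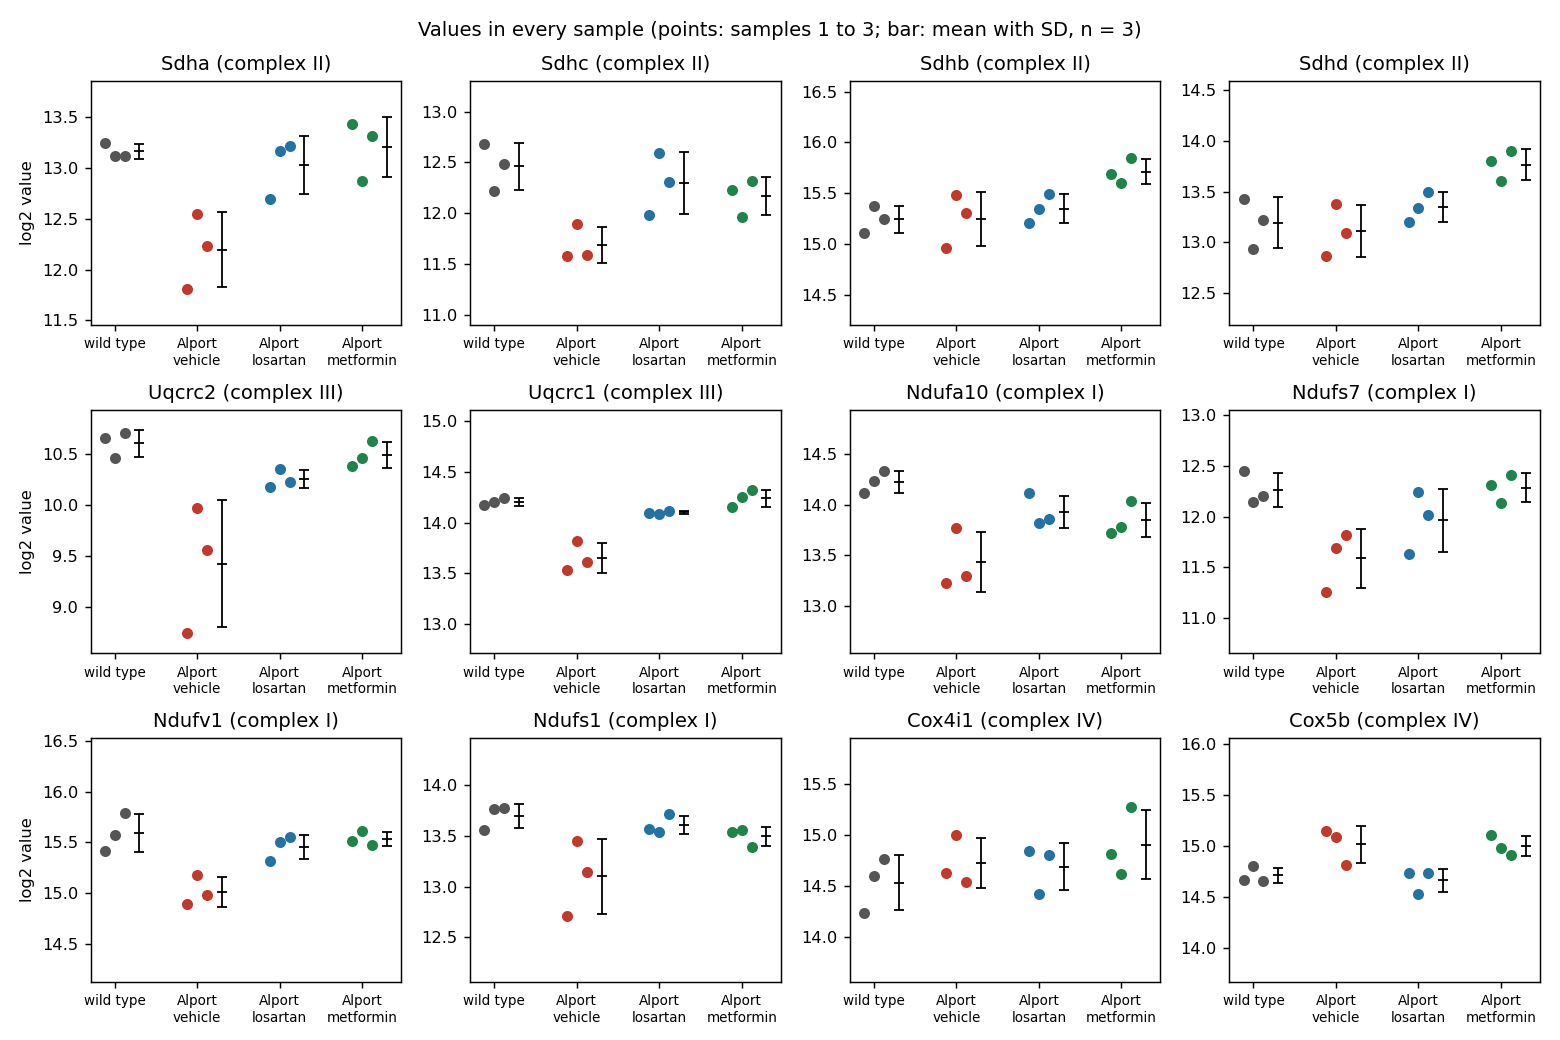
Points are the log2 values of 12 genes in samples 1 to 3 of each group, with the mean and SD (n = 3) beside them, and every panel spans the same number of log2 units. Sdha, Sdhc, Uqcrc2, Uqcrc1 and Ndufv1 show Alport vehicle samples below every other sample, whereas Sdhb, Sdhd and Cox4i1 show wild type and Alport vehicle overlapping.

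Losartan against Alport vehicle compares the mutant kidneys titled losartan with those titled vehicle. It shares the Alport vehicle samples with the comparison above and with that of metformin, so a low or high value there moves all of them, and the values are given side by side. Of the 86 genes 2 rose and 1 fell, with 3.79% of all probe sets called higher and 4.11% lower. Sdha rose by 0.83 ± 0.21 (adjusted p = 0.0245) and Uqcrc2 by 0.83 ± 0.24 (adjusted p = 0.0399). In both the losartan samples lay above the Alport vehicle samples without overlap. Neither rise passed when only these 2 groups were fitted (adjusted p of 0.0543 and 0.1). Both were lost without Alport vehicle sample 1 or 3 or losartan sample 2 or 3, and that of Uqcrc2 without losartan sample 1 too, with adjusted p of up to 0.13 for Sdha and 0.175 for Uqcrc2. Sdhc (0.61 ± 0.19, adjusted p = 0.0671), Uqcrc1 (0.45 ± 0.15, adjusted p = 0.0787) and Uqcrfs1 (0.48 ± 0.18, adjusted p = 0.119) were higher in all 3 losartan samples and did not pass.

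The gene that fell with losartan was Cox6b2, known as the testis form of a complex IV subunit at the intermembrane side. It read 5.98, 5.67 and 5.38 in wild type, 6.85, 5.95 and 5.92 in Alport vehicle, 5.13, 4.65 and 5.46 under losartan and 5.33, 4.72 and 5.38 under metformin. Both drug groups lay below Alport vehicle, and the falls were 1.16 ± 0.27 with losartan (adjusted p = 0.0166) and 1.10 ± 0.27 with metformin (adjusted p = 0.0314). Its values were below the sample median in 10 of 12 samples, so the size is uncertain, and without Alport vehicle sample 1, the highest, the adjusted p was 0.0914 with losartan and 0.146 with metformin. It was 0.0959 without losartan sample 2, and 0.121 and 0.0642 without metformin sample 2 or 3. The widely expressed form Cox6b1 read 14.57, 14.41 and 14.39 in wild type, 14.47, 14.77 and 14.67 in Alport vehicle, 14.44, 14.34 and 14.52 under losartan and 14.88, 14.55 and 15.09 under metformin. It was -0.20 ± 0.17 with losartan and 0.20 ± 0.17 with metformin against Alport vehicle, and these groups overlapped.

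The upstream sequences of this isoform pair are shown because the forms had unlike values with the drugs. Cox6b1 carried the ETS motif, in capitals, on the opposite strand from position -28, and Cox6b2 had none of the motifs in its window.
Cox6b1, chr7:30626115-30626364, minus strand: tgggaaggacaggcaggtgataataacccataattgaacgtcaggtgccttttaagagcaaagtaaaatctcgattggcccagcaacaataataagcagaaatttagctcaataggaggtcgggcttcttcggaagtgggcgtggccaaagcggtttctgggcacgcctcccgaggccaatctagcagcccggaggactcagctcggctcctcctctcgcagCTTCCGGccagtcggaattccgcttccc
Cox6b2, chr7:4753095-4753344, minus strand: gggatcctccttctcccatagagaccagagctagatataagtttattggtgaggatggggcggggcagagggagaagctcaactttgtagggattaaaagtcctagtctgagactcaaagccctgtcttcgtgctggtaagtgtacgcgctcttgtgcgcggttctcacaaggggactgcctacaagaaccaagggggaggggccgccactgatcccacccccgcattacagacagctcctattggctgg

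Losartan lay wholly above Alport vehicle for 10 genes (background 11.8%) and wholly below for 6 (background 11.3%). By complex, the medians with losartan were 0.10 for complex I, 0.42 for II, 0.05 for III, -0.12 for IV and -0.01 for V (0.08 after centring), against 0.01 over all probe sets. In complex I, 0 of 38 genes were called by limma, with 5 higher and 0 lower at an unadjusted p under 0.05, where 10.2% of all probe sets were higher and 10.2% lower. The 5 are thus near the background, and they included Ndufs1 (0.51 ± 0.18, adjusted p = 0.111) and Ndufv1 (0.44 ± 0.16, adjusted p = 0.114), whose losartan samples lay above Alport vehicle without overlap. In complex IV, 15 of 18 genes had a change below 0, among them Cox8a and Cox5b, where 10733 of the 22206 probe sets did. Such counts depend on the scale of the arrays. Over the 86 genes, 45 lay above 0 as deposited, 58 after centring each sample and 36 after quantile normalization. Centring moved the median of all probe sets from 0.01 to 0.105. Cox8a, the widely expressed form, read 16.48, 16.44 and 16.71 in wild type, 16.43, 16.53 and 16.47 in Alport vehicle, 16.04, 16.12 and 16.23 under losartan and 16.36, 16.29 and 16.53 under metformin. Losartan lay below every other sample of Cox8a, by 0.35 ± 0.15 against Alport vehicle, but the difference did not pass (adjusted p = 0.207). Cox5b was likewise below Alport vehicle without overlap (-0.35 ± 0.16, adjusted p = 0.211).

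In complex V, 0 of 17 genes were called with losartan by limma, and at an unadjusted p under 0.05 there was 1 higher, Atp5pb (0.46 ± 0.19, adjusted p = 0.176), a share below the background. Atp5g2, a further gene for the c subunit, read 15.36, 15.35 and 15.62 in wild type, 15.11, 15.20 and 14.99 in Alport vehicle, 14.84, 14.92 and 14.63 under losartan and 15.02, 14.92 and 15.33 under metformin. Its losartan samples were the lowest, level with the lower metformin sample, and stood at -0.30 ± 0.17 against Alport vehicle (adjusted p = 0.338). With centring 4 of the 86 genes rose and 1 fell with losartan. The count of 3 became 0 without Alport vehicle sample 1 or losartan sample 2, 1 without Alport vehicle sample 3 or losartan sample 3, and 7 without Alport vehicle sample 2.

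**Figure D3:**
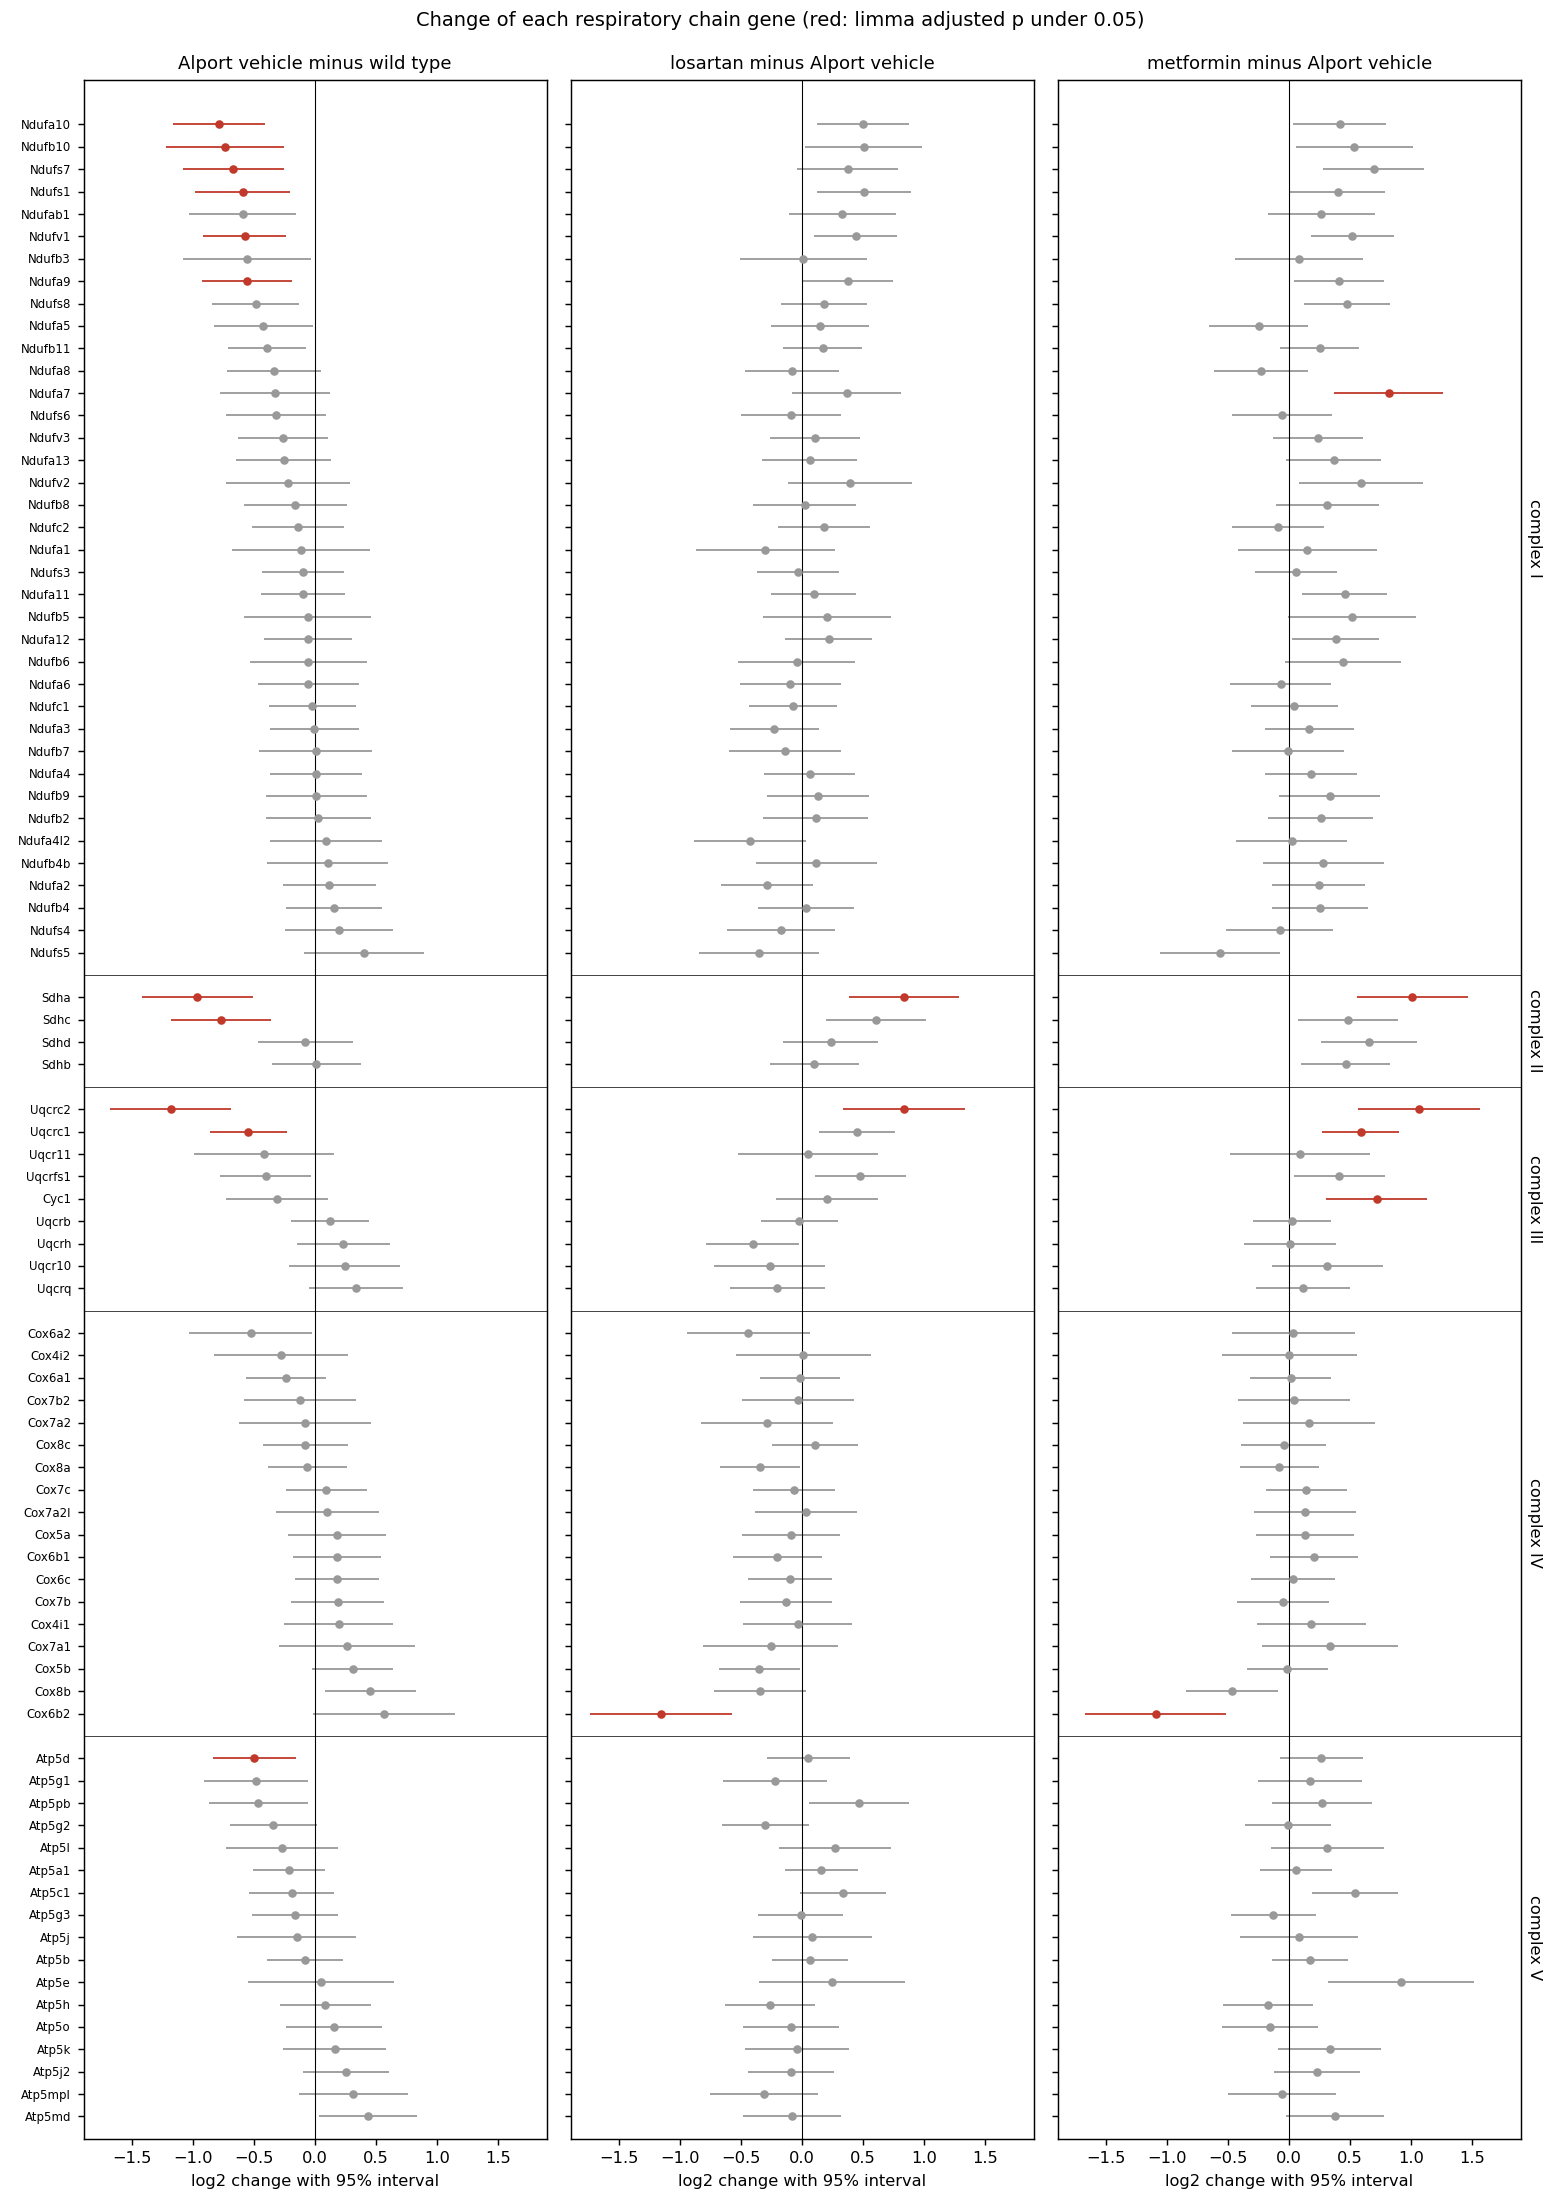
Each row is a gene and each point its log2 change with the 95% interval, for the 3 comparisons that involve Alport vehicle; red marks an adjusted p under 0.05. The 11 red points of the left panel lie below 0, and 67 of the 86 points of the right panel lie above 0.

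Metformin against Alport vehicle makes the same comparison for the samples titled metformin. Of the 86 genes 5 rose and 1, Cox6b2, fell, with 2.67% of all probe sets called higher and 2.27% lower. The 3 metformin samples lay above all Alport vehicle samples for 20 genes (background 10.6%) and below them for 2 (background 9.88%). The median change was 0.18 over the 86 genes against -0.01 over all probe sets. A change above 0 was seen in 67 of the 86 genes and in 10626 of the 22206 probe sets. The 67 became 60 after quantile normalization and 75 after centring. With single samples left out it ran from 56, without Alport vehicle sample 3 or metformin sample 3, to 77, without Alport vehicle sample 2. By complex the medians were 0.26 for I, 0.57 for II, 0.31 for III, 0.03 for IV and 0.17 for V.

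Complex I contributed 1 rise of its 38 genes. Ndufa7, a supernumerary subunit of the matrix arm, read 6.17, 6.15 and 6.18 in wild type, 5.61, 6.03 and 5.87 in Alport vehicle, 6.60, 5.77 and 6.24 under losartan and 6.81, 6.32 and 6.83 under metformin. Metformin lay above Alport vehicle and above wild type without overlap, and the rise over Alport vehicle was 0.82 ± 0.21 (adjusted p = 0.0368). The call was lost without Alport vehicle sample 1 or 3 or metformin sample 1 or 3, with adjusted p of up to 0.149. This probe set was near the array medians and below them in 3 samples. Core subunits were higher without passing, with Ndufs7 at 0.69 ± 0.20 (adjusted p = 0.0535), Ndufv1 at 0.52 ± 0.16 (adjusted p = 0.0775) and Ndufs8 at 0.47 ± 0.17 (adjusted p = 0.123), and in these 3 genes the metformin samples lay above all Alport vehicle samples. In the opposite direction Ndufs5 stood at -0.57 ± 0.23 (adjusted p = 0.191). In all, 11 of 38 complex I genes were higher and 1 lower at an unadjusted p under 0.05, where 9.56% of all probe sets were higher and 9.05% lower.

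In complex II, Sdha rose by 1.01 ± 0.21 with metformin (adjusted p = 0.0136), which is 2.01-fold. The call was lost without Alport vehicle sample 1 (adjusted p = 0.0755) or metformin sample 3 (0.067). Sdhd stood at 0.65 ± 0.18 (adjusted p = 0.0527), Sdhc at 0.48 ± 0.19 (adjusted p = 0.177) and Sdhb at 0.46 ± 0.17 (adjusted p = 0.144). All 4 genes had metformin samples wholly above Alport vehicle. Sdhb and Sdhd, which were not called in Alport vehicle, were also above wild type in all 3 metformin samples, by 0.47 ± 0.17 (adjusted p = 0.148) and 0.57 ± 0.18 (adjusted p = 0.0962).

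In complex III, 3 of 9 genes rose with metformin. Uqcrc2 rose by 1.07 ± 0.24 (adjusted p = 0.0172), Uqcrc1 by 0.59 ± 0.15 (adjusted p = 0.0331) and Cyc1 by 0.72 ± 0.20 (adjusted p = 0.0469), each without overlap. The Uqcrc1 and Cyc1 calls were lost after quantile normalization (adjusted p of 0.0927 and 0.0636). Both were also lost on leaving out any sample of these groups but Alport vehicle sample 2, with adjusted p of up to 0.131 and 0.212. That of Uqcrc2 was lost without Alport vehicle sample 1 (0.0663) or metformin sample 3 (0.0798). All 9 genes of the complex had a change above 0. In complex IV the only call was the fall of Cox6b2, and Cox8b stood at -0.47 ± 0.18 (adjusted p = 0.15).

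In complex V, 0 of 17 genes passed in the limma test, with 2 higher and 0 lower at an unadjusted p under 0.05, a share near the 9.56% of all probe sets. These were Atp5c1, the gamma subunit of the rotor, and Atp5e, the epsilon subunit beside it. Atp5c1 read 15.61, 15.53 and 15.33 in wild type, 15.24, 15.41 and 15.24 in Alport vehicle, 15.39, 15.71 and 15.79 under losartan and 15.84, 15.70 and 15.97 under metformin. Metformin lay above Alport vehicle and wild type (0.54 ± 0.17 against Alport vehicle, adjusted p = 0.0731). Atp5e read 9.10, 9.10 and 8.37 in wild type, 8.53, 9.0 and 9.18 in Alport vehicle, 9.01, 9.06 and 9.37 under losartan and 9.58, 9.34 and 10.53 under metformin. Metformin lay above Alport vehicle by 0.91 ± 0.28 (adjusted p = 0.076), with sample 3 highest. All 5 genes of the F1 head had metformin samples above Alport vehicle without overlap. So did 0 of the 12 other genes of complex V and 10.6% of all probe sets. The changes of the 5 ran from 0.06 (Atp5a1) to 0.91 (Atp5e), with a median of 0.26, and 0 were called. The division into F1 head and other genes was made after the values had been seen and has no test.

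The 6 calls with metformin became 10 (9 higher and 1 lower) after centring. When only these 2 groups were fitted 0 were called by limma. They became 0 without Alport vehicle sample 1 or metformin sample 3, and 3 without Alport vehicle sample 3, metformin sample 1 or metformin sample 2.

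Metformin against losartan compares the drugs directly, in mutant mice with no shared control. By limma 0 of the 86 genes were called, where 0.018% of all probe sets were called higher and 0.027% lower. At an unadjusted p under 0.05, 14 of the 86 genes were higher with metformin and 0 lower, where 4.24% of all probe sets were higher and 4.13% lower. The median difference (metformin minus losartan) was 0.16 over the 86 genes against -0.01 over all probe sets. Of the 86 genes 69 were above 0, where 10544 of the 22206 probe sets were. With single samples left out the 69 ran from 52 to 70. By sample, 52 was the count without metformin sample 3. By complex the median difference was 0.13 for I, 0.27 for II, 0.23 for III, 0.17 for IV and 0.21 for V, and it stayed above 0 in every complex after centring and after quantile normalization. Between the drug groups 20 genes did not overlap with metformin higher (background 5.77%), and 1, Atp5a1, with metformin lower (background 7.74%). Median differences without each sample in turn ran from 0.07, without metformin sample 3, to 0.27, without metformin sample 2.

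Ndufa2, a supernumerary subunit of complex I, had the smallest p of the 86 genes. It read 11.17, 11.10 and 11.25 in wild type, 11.05, 11.53 and 11.29 in Alport vehicle, 11.06, 10.91 and 11.03 under losartan and 11.44, 11.30 and 11.85 under metformin. Metformin lay above losartan and above wild type, by 0.53 ± 0.18 over losartan (adjusted p = 0.43). The next genes of this complex were Ndufa3, at 0.39 ± 0.17, and Ndufa11, at 0.36 ± 0.16. Ndufa3 read 14.67, 14.63 and 14.67 in wild type, 14.52, 14.85 and 14.58 in Alport vehicle, 14.36, 14.39 and 14.51 under losartan and 14.57, 14.74 and 15.13 under metformin. Ndufa11 read 11.39, 11.16 and 11.40, then 10.98, 11.33 and 11.34, then 11.37, 11.24 and 11.32, and 11.58, 11.58 and 11.85 in the same order. In both genes the metformin samples lay above the losartan samples.

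Of the other complexes, Uqcr10, a small subunit of complex III, read 12.78, 12.59 and 12.64 in wild type, 12.69, 13.36 and 12.69 in Alport vehicle, 12.94, 12.40 and 12.60 under losartan and 13.09, 13.02 and 13.56 under metformin (0.58 ± 0.21 over losartan, adjusted p = 0.478). Uqcrh, the hinge protein of complex III, read 15.02, 14.86 and 15.22, then 15.25, 15.31 and 15.23, then 14.92, 14.63 and 15.02, and 15.13, 15.09 and 15.59 (0.41 ± 0.18, adjusted p = 0.566). In both the metformin samples stood above the losartan samples, as they did for Cyc1 (0.51 ± 0.20, adjusted p = 0.489) and Sdhd (0.42 ± 0.18, adjusted p = 0.572). In complex IV, Cox6b1 stood at 0.41 ± 0.17, Cox7a1 at 0.59 ± 0.26 and Cox5b at 0.34 ± 0.16, with adjusted p of 0.541, 0.573 and 0.59. In complex V, Atp5e had the highest difference of the 86 genes, 0.67 ± 0.28 (adjusted p = 0.544), and Atp5md stood at 0.46 ± 0.19. Of the genes that fell in Alport vehicle, the difference was, 0.18 for Sdha (95% interval -0.28 to 0.63), 0.23 for Uqcrc2 (-0.27 to 0.73) and -0.08 for Ndufa10 (-0.46 to 0.30). The intervals of Sdha and Uqcrc2 include differences above 0.50, the size of the fall of Atp5d called in Alport vehicle.

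Each drug group was also set against wild type, and these comparisons share the wild type samples with each other. With losartan 0 of 86 genes were called by limma, with 0 higher and 9 lower at an unadjusted p under 0.05 (all probe sets 5.68% and 5.06%), and 0.401% of all probe sets were called higher and 0.149% lower. The lowest was Cox6a2. Losartan samples lay wholly below wild type for 18 genes and wholly above for 0, where 8.32% and 8.4% of all probe sets did so. With metformin 1 gene rose, Atp5md, by 0.81 ± 0.19 (adjusted p = 0.0248), where 2.7% of all probe sets were called higher and 1.48% lower. Metformin lay wholly above wild type for 19 genes (background 10.6%) and wholly below for 10 (background 12.2%). The Atp5md call was lost when wild type sample 2 or 3, or metformin sample 1 or 3, was left out, with adjusted p of up to 0.121. Ndufa5, a subunit of the matrix arm, was the lowest with metformin against wild type, at -0.68 ± 0.19 (adjusted p = 0.0574). It read 11.57, 11.71 and 11.90 in wild type, 11.46, 11.49 and 10.95 in Alport vehicle, 11.65, 11.15 and 11.54 under losartan and 11.08, 10.91 and 11.16 under metformin, so metformin lay below wild type without overlap. The 11 genes that had fallen in Alport vehicle had differences from wild type of between -0.45 (Atp5d) and -0.09 (Ndufs1) with losartan. With metformin their differences lay between -0.38 (Ndufa10) and 0.04 (Sdha). These genes were called against the same wild type samples, so high values there would push both sets of differences below 0.

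Genes that build or supply the chain were described beside the subunits, by lists chosen from their known roles. Their counts stand beside the shares of all probe sets called in the same comparison, which were 7.71% lower and 8.43% higher in Alport vehicle against wild type, 3.79% higher with losartan and 2.67% higher with metformin. Coenzyme Q synthesis and other electron carriers had 7 of 17 genes lower and 0 higher in Alport vehicle against wild type. Among the 7 were Etfdh, which feeds electrons from fatty acid oxidation into coenzyme Q (fall of 0.86 ± 0.16, adjusted p = 0.00156), Coq9 (0.90 ± 0.17, adjusted p = 0.00179) and Coq8a (0.97 ± 0.21, adjusted p = 0.00355). With losartan 3 of the 17 rose, Etfdh by 0.75 ± 0.16, Coq9 by 0.77 ± 0.17 and Coq5 by 1.01 ± 0.24, and with metformin 1 rose, Coq9 by 0.73 ± 0.17. Cycs, cytochrome c itself, stood at -0.04 ± 0.16 in Alport vehicle, with wild type at 16.15 to 16.25 and Alport vehicle at 15.92 to 16.31.

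Assembly factors, which are needed to build the complexes but are not part of them, were lower in 3 of 16 genes for complex I, 1 of 4 for II, 3 of 6 for III, 2 of 24 for IV and 0 of 5 for V, and higher in 0 of these lists, in Alport vehicle against wild type. The share for complex IV was near the 7.71% of all probe sets, and that for complex V below it. The genes that fell were Ndufaf1 (0.93 ± 0.23), Acad9 and Ecsit for complex I, Sdhaf1 (0.61 ± 0.17), which helps insert iron-sulfur clusters, for complex II, Bcs1l (0.94 ± 0.24), which inserts the Rieske protein, with Uqcc3 and Ttc19 for complex III, and Cox15 (1.02 ± 0.23), of heme A synthesis, with Lrpprc (0.90 ± 0.19), which stabilises mitochondrial mRNA, for complex IV. Bcs1l and Lrpprc rose with losartan (0.83 ± 0.24 and 0.69 ± 0.19) and with metformin (0.99 ± 0.24 and 0.73 ± 0.19). Ndufaf1, Cox15 and Cox11 rose with losartan, by 0.87 ± 0.23, 0.96 ± 0.23 and 0.71 ± 0.21, and Foxred1 rose with metformin, by 0.95 ± 0.22.

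Of 14 regulators of respiratory chain transcription 6 fell in Alport vehicle and 0 rose. Ppara, a receptor that drives fatty acid oxidation genes, read 11.20, 12.09 and 12.08 in wild type, 9.71, 10.16 and 10.64 in Alport vehicle, 10.85, 10.99 and 11.38 under losartan and 10.88, 10.72 and 11.48 under metformin. It fell by 1.62 ± 0.28 (adjusted p = 0.000761), and Alport vehicle lay below every other sample. The coactivator Ppargc1b fell by 1.24 ± 0.19 (adjusted p = 0.000233) and Esrrg by 0.80 ± 0.16 (adjusted p = 0.00191). Ppargc1a, the coactivator best known for mitochondrial biogenesis, read 13.84, 14.17 and 14.09 in wild type, 13.52, 13.68 and 13.45 in Alport vehicle, 13.46, 13.60 and 13.63 under losartan and 13.22, 13.41 and 13.47 under metformin.

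Each Alport sample of Ppargc1a lay below wild type, with a fall of 0.48 ± 0.16 in Alport vehicle (adjusted p = 0.0482) and of 0.67 ± 0.16 with metformin against wild type (adjusted p = 0.0265). Tfam, which packages mitochondrial DNA, fell by 0.81 ± 0.24 (adjusted p = 0.0275), and Nrf1 stood at 0.32 ± 0.19 (adjusted p = 0.305). With losartan and with metformin 0 of the 14 were called against Alport vehicle by limma. Ppara was higher by 0.90 ± 0.28 and 0.86 ± 0.28 there, with adjusted p of 0.0611 and 0.095. Esrra was not analysed here.

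General mitochondrial genes had 6 of 22 lower and 0 higher in Alport vehicle, among them the import receptor Tomm70a (fall of 0.77 ± 0.19) and the fusion gene Mfn1 (0.57 ± 0.15). Cs, citrate synthase, often used as a measure of mitochondrial content, stood at -0.09 ± 0.17 (adjusted p = 0.789), with 13.19 to 13.64 in wild type and 13.24 to 13.30 in Alport vehicle. Of 76 mitochondrial ribosome genes 6 fell, a share near the 7.71% of all probe sets, and 1 rose. Of 15 glycolytic genes 3 rose, among them Pfkp (1.01 ± 0.20) and Pkm (0.62 ± 0.15), and 1, Pfkm, fell by 0.80 ± 0.21. Against Alport vehicle, 3 of the 22 general mitochondrial genes rose with losartan and 2 with metformin, and 0 fell. The shares of all probe sets called higher were 3.79% and 2.67%. With metformin the change was above 0 in 15 of the 22, 51 of the 76 ribosome genes and 13 of the 15 glycolytic genes. For metformin minus losartan these counts were 7, 33 and 12.

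**Figure D4:**
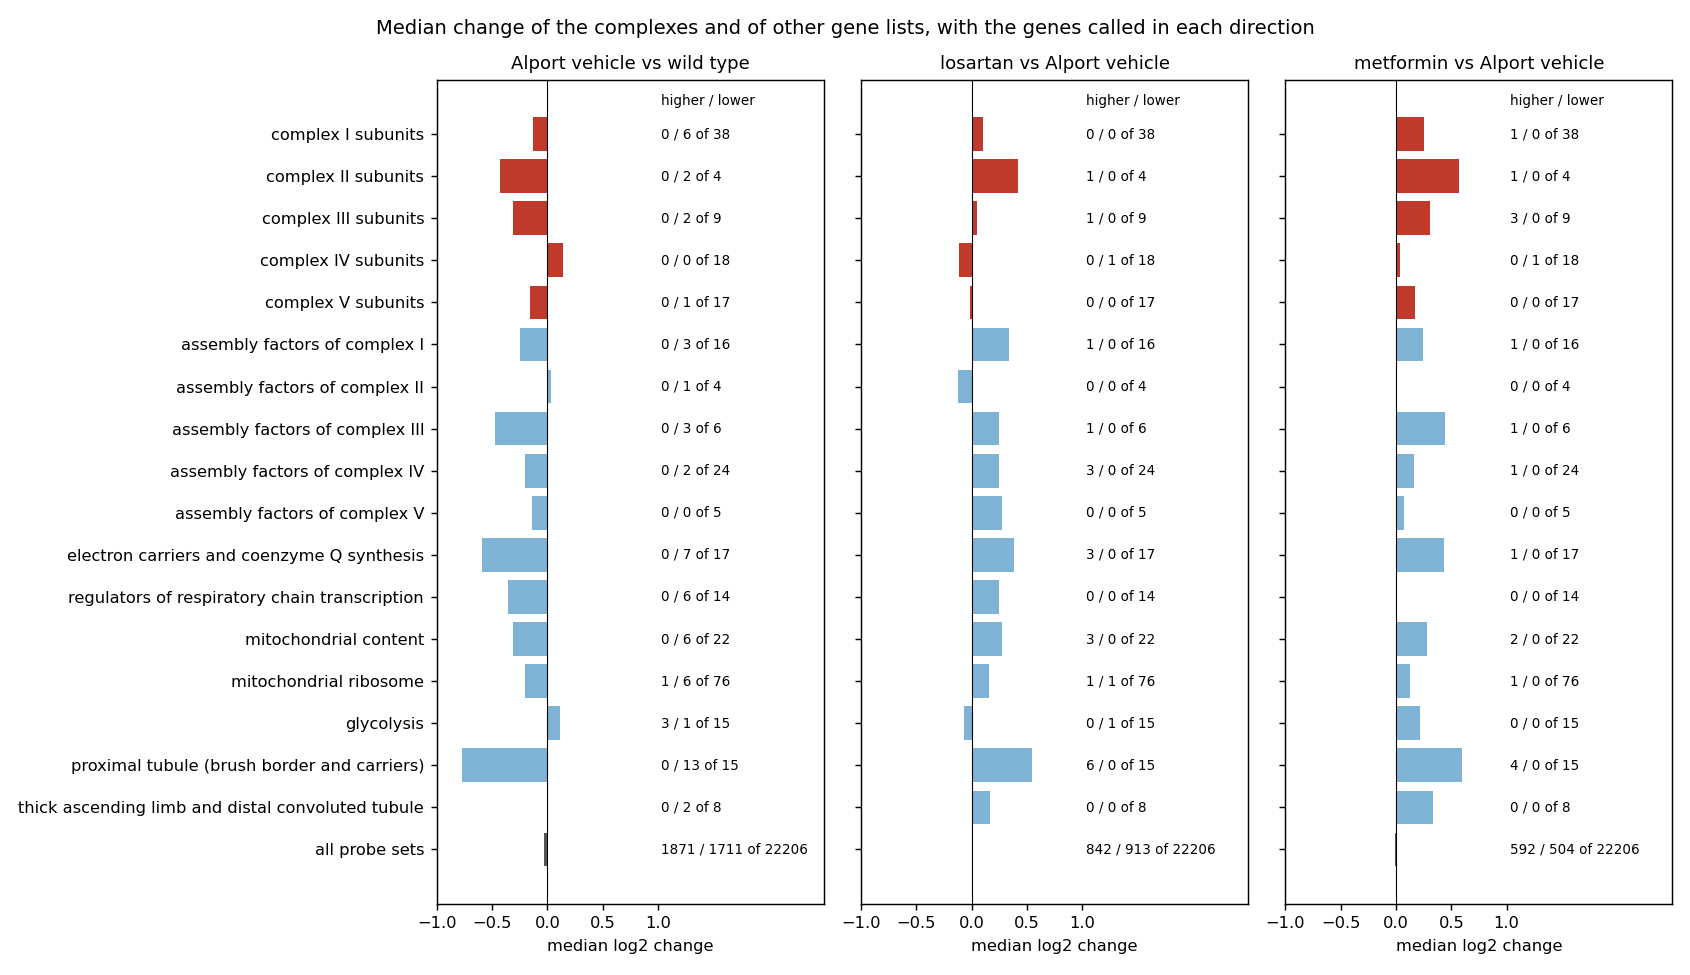
Bars are the median log2 change of the subunits of each complex (red), of the other lists (blue) and of all probe sets (grey), with the number of genes called higher and lower beside them, for the 3 comparisons that involve Alport vehicle. In Alport vehicle against wild type the proximal tubule markers (13 of 15 lower) and the coenzyme Q list (7 of 17 lower) have the lowest medians, and complex IV has a median above 0.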

How the data were processed

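Total RNA of whole kidney was hybridised to Affymetrix Clariom S arrays, and the deposited log2 values of 22206 probe sets were used as given. The authors processed them with Transcriptome Analysis Console 4.0, per the submitters' processing notes; the normalization is not given in the sources used here, and no scanner intensities were used here. Groups were taken from the sample titles. Where a gene had several probe sets the one with the highest mean was to be used, but each member had 1.

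limma 3.58.1 in R 4.3.3 (lmFit, eBayes) was fitted with group means over all 12 samples, with 8 residual degrees of freedom. Both directions were tested, two-sided, with Benjamini-Hochberg adjustment over all probe sets and a threshold of 0.05. The code was tested on simulated data. Values in every sample are given for the members with the highest and lowest change of each complex in Alport vehicle against wild type. They are also given for up to 3 members per complex with the smallest p in each comparison, isoform pairs, complex II and the catalytic subunits. From other lists, changes are given for up to 3 genes per comparison and for Ppargc1a, Nrf1, Tfam, Cycs and Cs. Of these lists, only Ppara and Ppargc1a have values in every sample. Ndufa5 and the genes named for their counts were added after their values were seen.

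The members and lists were chosen with earlier results of these data known, and the subgroups of complexes, the Sdha and Sdhb sequences and the motif sites after their values were seen. Promoters are RefSeq windows, matched by Entrez gene identifier. Alternatives were centring, quantile normalization, leaving out dim probe sets, trend and robust fits, array weights, fits of the compared groups only, the replicate block and leaving out each sample.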

Additional observations from a re-analysis of the deposited data

How the results depend on the processing

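The number of arrays limits precision, and the counts of called genes and the medians were judged by unlike rules. Of the alternative counts, 55 stayed within 1.5 times the reported count and 35 did not. Of the complex medians, 440 of the alternative values moved by less than 0.145 and 10 moved further. That limit is the SD between replicates of the sample medians over the 86 genes. It is wider than several of the medians, so a median could change sign within it. The median over the 86 genes in Alport vehicle against wild type, -0.085, did so after quantile normalization. No direction of a called value turned. In Alport vehicle against wild type the count of 11 became 17 after centring, 7 after quantile normalization and 5 when only the compared groups were fitted. In losartan against Alport vehicle the count of 3 became 5 after centring, 6 with trend and robust variances and 1 when only the compared groups were fitted. In metformin against Alport vehicle the count of 6 became 10 after centring, 10 with trend and robust variances and 0 when only the compared groups were fitted. Losartan against wild type gave 1 call in place of 0 with trend and robust variances, with array weights and with only the compared groups fitted. Metformin against wild type gave 2 in place of 1 after centring, without the dimmest 33.3% of probe sets, with array weights and with only the compared groups fitted, and 5 with trend and robust variances. With each sample left out in turn, the counts ran from 4 to 16 in Alport vehicle against wild type, 0 to 7 in losartan and 0 to 8 in metformin against Alport vehicle, 0 to 0 in metformin against losartan and losartan against wild type, and 0 to 1 in metformin against wild type. The medians over the 86 genes ran, in that order of comparisons, from -0.22 to -0.04, -0.04 to 0.14, 0.08 to 0.33, 0.07 to 0.27, -0.09 to -0.05 and -0.02 to 0.15. Samples share only a replicate number: deviations of same-numbered samples correlated at -0.14 to 0.08 over 18 pairs. With the replicate block the counts were 9, 3, 5, 0, 0 and 1 in the same order. Another probe set per gene could not be tried, since no member had one.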
